A study of Mus musculus with 16 samples.

Results

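The nuclear genes of the mitochondrial respiratory chain were followed in the skin of mice lacking MCPIP1. Members were chosen by name alone, as every target whose mouse symbol began with Ndufa, Ndufb, Ndufs, Ndufv, Ndufc, Sdha to Sdhd, Uqcr, Cox4i, Cox5, Cox6, Cox7, Cox8 or Atp5. The rule found 84 genes among 23930 targets: 31 of complex I, 4 of complex II, 8 of complex III, 18 of complex IV, 11 of complex V and 12 assembly factors whose symbols share the Ndufa and Sdha prefixes. Ndufa4 and Ndufa4l2 were counted with complex IV, where the Ndufa4 protein is now placed. Enough reads for testing were present for 82 of the 84. The exceptions, Cox7b2 and Cox8c, had 1 and 0 counts in the 16 libraries together.

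MCPIP1, encoded by Zc3h12a and also named Regnase-1, is an RNase that cleaves mRNAs of inflammatory genes. All mice were 12 weeks old and homozygous for a floxed allele, Zc3h12a(loxP/loxP), the controls included. EKO mice also carried Krt14Cre(Tg/Wt), with Cre under the promoter of keratin 14, a gene of basal keratinocytes and other epithelia. MKO mice carried LysMCre(Tg/Wt), with Cre in myeloid cells from the lysozyme 2 locus. EMdKO mice carried both Cre genes. The labels name no Cre for controls, so a Cre gene and loss of MCPIP1 cannot be told apart. Every group had 4 mice, numbered in the labels as separate animals, with 1 library per mouse, and p-values measure the spread between them. The libraries held between 6962474 and 12086327 counts, of which the respiratory chain genes took 0.799 to 1.528%. Levels are given as CPM, counts relative to the scaled library size, for mice 1 to 4 of a group in that order. Each count comes from an amplicon of its transcript, so levels are compared between mice and not between genes. Fold changes are log2 values with a standard error (SE). The p-values are from edgeR's quasi-likelihood test with Benjamini-Hochberg adjustment over 13633 tested targets, and a gene was called at an adjusted p under 0.05.

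The respiratory chain is a series of protein complexes in the inner mitochondrial membrane. Complexes I and II pass electrons from NADH and succinate to ubiquinone, complex III passes them on to cytochrome c, and complex IV, cytochrome c oxidase, gives them to oxygen. The proton gradient built on the way drives complex V, the ATP synthase. Most subunits are encoded in the nucleus, and the genes measured here are all nuclear. Complex IV has tissue-specific subunit isoforms: Cox6a2, Cox7a1 and Cox8b are the forms of heart and skeletal muscle, and Cox6a1, Cox7a2 and Cox8a the forms of most other tissues. Whole mouse skin includes a sheet of skeletal muscle under the dermis, beside epidermis, hair follicles, dermis and fat. In bulk RNA, fewer cells of a type and less RNA per cell cannot be told apart.

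Nuclear respiratory genes are known targets of NRF1, of the ETS factor GABP, of YY1 and of the estrogen-related receptors. RefSeq promoter windows of GRCm38.p6, from 250 bases before to 50 bases after a gene's start, were found for 67 member genes in 71 windows. Searched on both strands, the NRF1 core GCATGCG stood in 15.5% of the member windows and in 3.58% of 32851 windows of all genes. The ETS core CCGGAAG stood in 26.8% against 8.86%, the YY1 core ATGGCGG in 16.9% against 4.05% and the estrogen-related receptor core AAGGTCA in 7.04% against 4.72%. At least 1 of the 4 was present in 36 of the 71 member windows, 50.7% against 19.04% of all. A match is a string of letters and does not show that a factor binds there. The 250 upstream bases of 4 genes on which the results below turn are shown 5′ to 3′ on the gene's strand, from RefSeq, with matches to the motifs in capitals. Sdhb (chr4:140961021-140961270, plus strand) and Ndufa11 (chr17:56717512-56717761, plus strand) were among the genes higher in every EKO mouse than in controls. Cox6a1 (chr5:115348959-115349208, minus strand) is the general form of its subunit, and Cox7a1 (chr7:30183921-30184170, plus strand) is a muscle form.
Sdhb: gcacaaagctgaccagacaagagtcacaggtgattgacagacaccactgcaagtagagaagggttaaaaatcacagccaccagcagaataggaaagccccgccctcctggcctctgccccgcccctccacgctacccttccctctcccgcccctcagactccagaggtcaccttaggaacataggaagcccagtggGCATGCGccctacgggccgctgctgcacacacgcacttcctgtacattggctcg
Ndufa11: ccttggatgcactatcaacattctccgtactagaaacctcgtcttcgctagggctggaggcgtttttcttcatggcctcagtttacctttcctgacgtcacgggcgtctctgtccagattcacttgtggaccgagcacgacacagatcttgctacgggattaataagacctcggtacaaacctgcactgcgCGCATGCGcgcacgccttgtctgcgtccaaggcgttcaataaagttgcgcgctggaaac
Cox6a1: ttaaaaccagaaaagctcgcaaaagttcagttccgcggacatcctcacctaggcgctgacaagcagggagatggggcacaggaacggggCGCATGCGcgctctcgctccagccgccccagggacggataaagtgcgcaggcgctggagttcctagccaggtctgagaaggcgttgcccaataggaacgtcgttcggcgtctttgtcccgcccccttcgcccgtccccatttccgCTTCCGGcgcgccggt
Cox7a1: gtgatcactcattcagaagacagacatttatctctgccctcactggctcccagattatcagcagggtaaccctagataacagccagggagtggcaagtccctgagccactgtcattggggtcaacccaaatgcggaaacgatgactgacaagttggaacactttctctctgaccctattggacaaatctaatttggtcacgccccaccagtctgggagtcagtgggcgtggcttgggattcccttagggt

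The upstream bases of Sdhb, Ndufa11 and Cox6a1 each held the NRF1 core, in Ndufa11 and Cox6a1 on both strands at the same place. Those of Cox6a1 also held the ETS core, read on the other strand as CTTCCGG, near the gene's start. The 300-base window of Sdhb held the ETS core too, outside the upstream bases shown. The upstream bases of Cox7a1 held none of these letters, and those of Cox7a2, the general form, held none either. Of the other genes higher in every EKO mouse, the windows of Ndufv1, Uqcrfs1, Cox7b, Ndufa4 and Atp5j2 held none of the motifs. The window of Atp5g3 held the estrogen-related receptor core and that of Ndufa1 the YY1 core. For Ndufa2, Cox4i1 and Atp5a1, also higher in every EKO mouse, no window was found. The genes shown are examples and do not stand for their groups.

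Levels of Zc3h12a itself were lower where Krt14Cre was present. Control mice had 19.4, 21.7, 30.3 and 27.4 CPM, EKO mice 11.7, 7.07, 7.40 and 8.41, MKO mice 17.1, 35.01, 29.2 and 24.8 and EMdKO mice 5.47, 5.69, 5.71 and 4.41 CPM. The difference from control passed the test in EMdKO (log2 fold change -2.21, edgeR adjusted p = 0.000448) and missed it in EKO (-1.52, edgeR adjusted p = 0.082), where every mouse was still below every control. The MKO level overlapped that of controls, in RNA of whole skin.

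In mice with Krt14Cre alone, levels lay slightly higher across the chain, but no member passed the test. Summed over the 82 tested genes, the level was 10115, 8777, 9952 and 10780 CPM in controls and 12985, 11487, 11328 and 12632 CPM in EKO mice. The groups did not overlap. Per gene, 76 of the 82 (92.7%) had a positive log2 fold change in EKO, with a median of 0.28. Among all 13633 targets 45.8% were positive and the median was -0.03. From mouse to mouse, the median log2 level of the members had a within-group SD of 0.31 pooled over all 4 groups, larger than the EKO median of 0.28. That SD includes the wider MKO and EMdKO groups. As deviations from the 16-mouse means, these medians ran from -0.26 to 0.66 in MKO and from -0.51 to 0.39 in EMdKO. They ran from -0.296 to 0.038 in controls and from 0.044 to 0.254 in EKO. With edgeR, 0 members were called, where 0% of all targets were called in EKO. Unadjusted p was under 0.05 for 3 (3.66%) members and for 6.9% of all targets, and DESeq2 and limma-voom also called 0 members.

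In 12 of the 82 genes (14.6%) every EKO mouse was above every control mouse, as in 1.03% of all targets, and 0 genes were below in every mouse, as were 1.23% of all. The 12 were Ndufa1, Ndufa2, Ndufa11 and Ndufv1 of complex I, Sdhb, Uqcrfs1, the complex IV genes Cox4i1, Cox7b and Ndufa4, and Atp5a1, Atp5g3 and Atp5j2 of complex V. They were singled out by this comparison, and their values are a description. The genes moved together from mouse to mouse, as given below, so the 82 are not independent of each other. On library totals without scaling factors the count was 17, against 1.48% of all targets. It ranged from 12 to 22 when a library was left out, with 22 without control mouse 4, where 3.01% of all targets were above. Genes below in every mouse were 2 without EKO mouse 1 (2.44% of members, 4.52% of all targets) and 0 without another library.

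**Figure D1:**
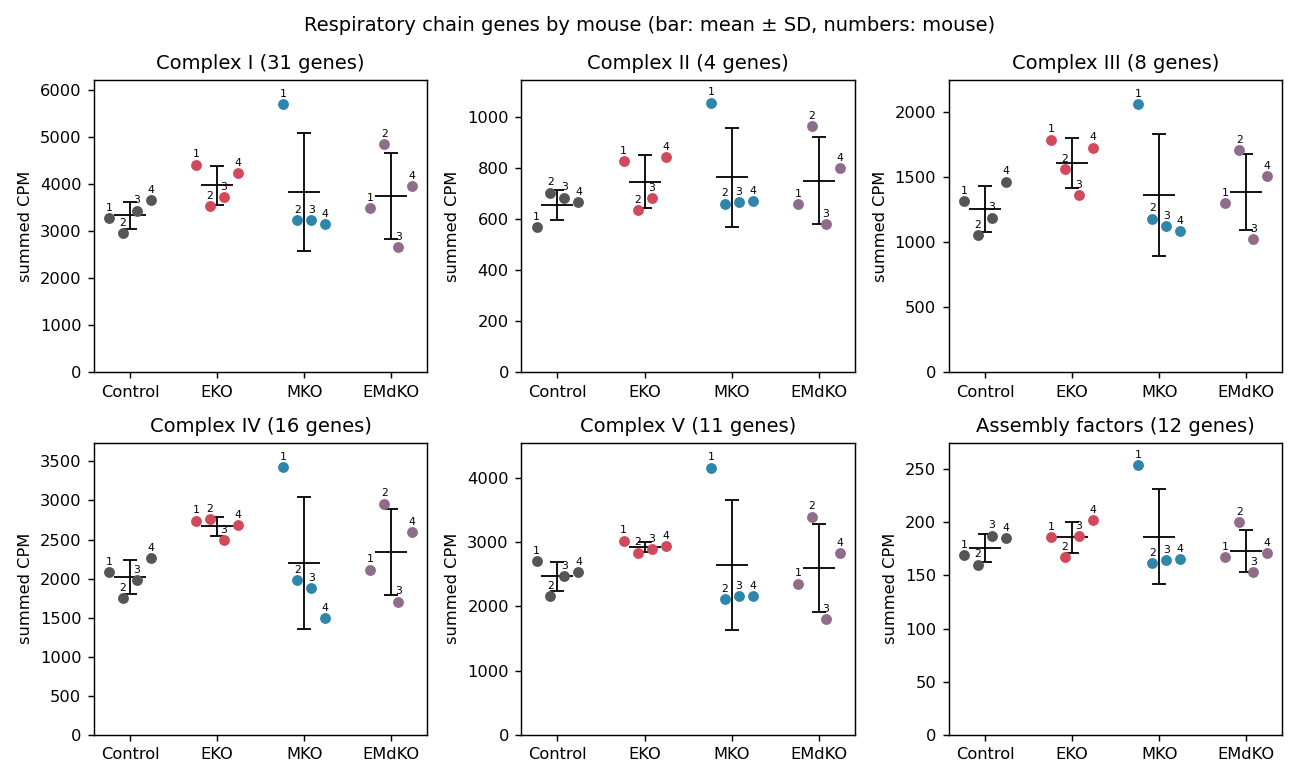
Summed CPM of the tested genes of each complex in each mouse, with numbers for mice and bars for mean and SD of 4 mice. Complex IV and complex V lay higher in all 4 EKO mice than in any control, and MKO mouse 1 was the highest of the 16 mice for all 5 complexes and for the assembly factors.

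Complexes IV and V did not overlap between EKO and control. Complex IV genes summed to 2087, 1748, 1980 and 2264 CPM in controls and to 2742, 2757, 2489 and 2687 CPM in EKO mice, with a median log2 fold change of 0.37 over 16 genes. Complex V genes summed to 2702, 2156, 2474 and 2541 CPM in controls and to 3028, 2841, 2889 and 2936 CPM in EKO mice, with a median of 0.33 over 11 genes. In both complexes the lowest EKO mouse was above the highest control. The 8 genes of complex III were positive throughout, with a median of 0.34, but their sums overlapped, at 1052 to 1465 CPM in controls and 1360 to 1788 CPM in EKO mice. Complex I had a median of 0.23 with 30 of 31 genes positive, and complex II 0.18 with 4 of 4, and the sums of both overlapped. The 12 assembly factors, which help build complexes I and II without being part of them, were nearest to 0, with a median of 0.03.

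In complex I, Ndufa11, an accessory subunit of the membrane arm, had the smallest p of all members in EKO. Its level was 109, 63.6, 95.6 and 114 CPM in controls and 177, 134, 126 and 154 CPM in EKO mice. The log2 fold change was 0.63 (SE 0.24, edgeR adjusted p = 0.647), so the difference did not pass after adjustment although the mice did not overlap. Ndufv1, the core subunit that binds NADH, had 72.3, 52.4, 69.9 and 82.3 CPM in controls and 91.7, 91.2, 92.5 and 95.6 CPM in EKO mice. The EKO mice lay close together, all above the controls, at a log2 fold change of 0.42 (SE 0.23). Ndufa1, an accessory subunit, had 108, 83.4, 108 and 71.97 CPM in controls and 141, 110.0, 128 and 122 CPM in EKO mice, where the lowest EKO mouse was just above the highest control. Ndufs1, a core iron-sulfur subunit, overlapped between the groups, at 201 ± 32.9 CPM in controls and 241 ± 34.9 CPM in EKO mice (SD, n = 4). Ndufv3, an accessory subunit, was next in p among complex I genes, with a log2 fold change of 0.37 (SE 0.17, edgeR adjusted p = 0.703).

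Complex II is the enzyme shared with the tricarboxylic acid cycle. Its iron-sulfur subunit Sdhb had 74.2, 85.6, 91.7 and 107 CPM in controls and 152, 119, 112 and 149.5 CPM in EKO mice. Every EKO mouse was above every control, at a log2 fold change of 0.57 (SE 0.30, edgeR adjusted p = 0.741). Its flavoprotein subunit Sdha had 204 ± 23.7 CPM in controls and 208 ± 26.1 CPM in EKO mice (SD, n = 4), a log2 fold change of 0.03 (SE 0.23), and overlapped. The difference between these genes was not tested.

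In complex III, Uqcrfs1, the Rieske iron-sulfur protein, had 114, 56.8, 110.3 and 115 CPM in controls and 193, 135, 118 and 158 CPM in EKO mice. The lowest EKO mouse was just above the highest control, and control mouse 2 was well below the other controls. The log2 fold change was 0.61 (SE 0.28, edgeR adjusted p = 0.72). Uqcrc1, a core protein, overlapped, at 442 ± 69.7 CPM in controls and 541 ± 64.6 CPM in EKO mice (SD, n = 4).

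In complex IV, Ndufa4 had 203, 201, 208 and 221 CPM in controls and 257, 290.3, 347 and 344 CPM in EKO mice. The controls were even, and all EKO mice lay above them, at a log2 fold change of 0.57 (SE 0.28, edgeR adjusted p = 0.736). Cox7b, a small accessory subunit, had 315, 279.9, 273 and 305 CPM in controls and 433, 381, 396 and 418 CPM in EKO mice. Cox4i1, the common form of subunit 4, had 142, 97.1, 153 and 149.7 CPM in controls and 176, 181, 212 and 177 CPM in EKO mice. Both were higher in all 4 EKO mice than in controls, with log2 fold changes of 0.47 and 0.46. Cox7a2, the general form of subunit 7a, had a log2 fold change of 0.61 (SE 0.32, edgeR adjusted p = 0.737), but its groups overlapped. Cox5a and Cox6b1 overlapped too, with log2 fold changes of 0.35 and 0.19. The lowest fold change of the 82 genes was that of Cox4i2, the other form of subunit 4, at -0.44 (SE 0.37), in a gene of few reads (4.37 to 9.64 CPM in controls).

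In complex V, Atp5a1, the alpha subunit, had 458, 324, 419 and 442 CPM in controls and 479, 547, 506 and 513 CPM in EKO mice, without overlap. Atp5b, the beta subunit that carries the catalytic sites, had 707, 639.8, 546 and 607 CPM in controls and 673, 614, 578 and 631 CPM in EKO mice. Its groups lay over each other, at a log2 fold change of 0.00 (SE 0.19). Atp5g3, a gene for the rotating c ring, had 269.5, 262, 326 and 294 CPM in controls and 414, 376, 374 and 434 CPM in EKO mice. The groups did not overlap, and the log2 fold change was the largest of complex V, at 0.47 (SE 0.27, edgeR adjusted p = 0.773). Atp5j2, a membrane subunit, did not overlap either, at 168 to 240.2 CPM in controls and 263 to 326 CPM in EKO mice.

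**Figure D2:**
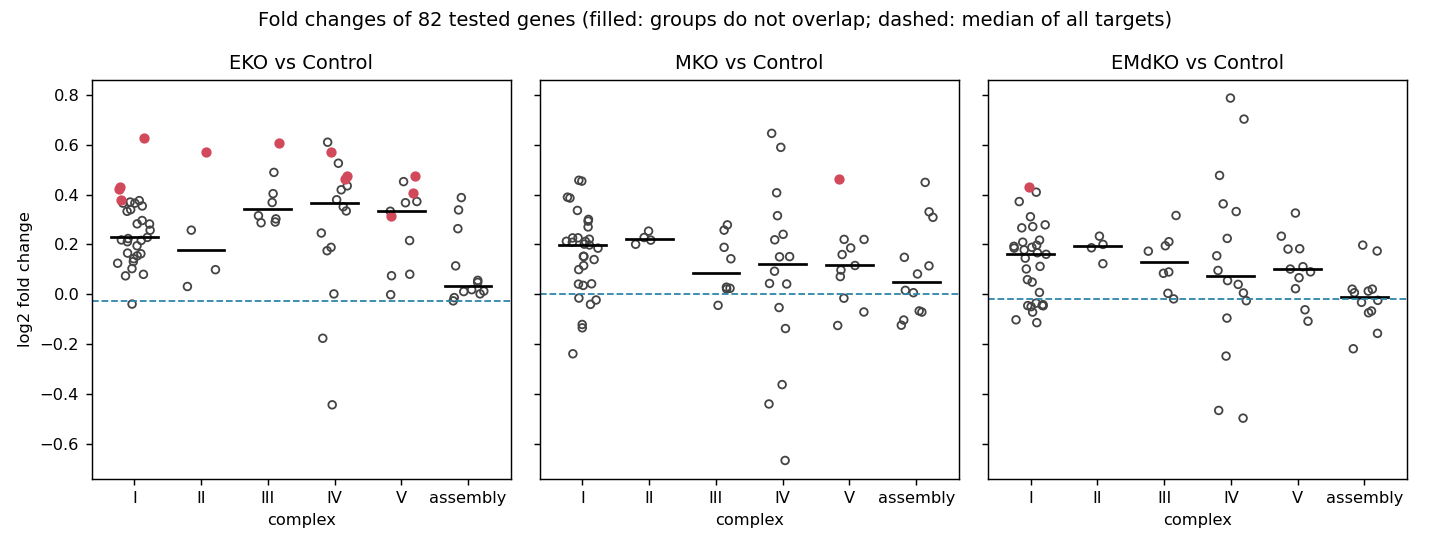
Log2 fold change of each of the 82 tested genes in the 3 knockout groups against control, by complex. In EKO 76 genes lie above 0, in MKO 63 and in EMdKO 59, and 12 genes in EKO and 1 each in MKO and EMdKO had every mouse above every control.

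Markers of other tissues moved between these mice as well. Of 27 skeletal muscle genes such as myosins and troponins 26 were tested, and 16 of them were positive in EKO with a median log2 fold change of 0.07. Their summed level was 36151 to 69160 CPM in controls and 39059 to 92793 CPM in EKO. EKO mice 1 to 4 had muscle sums of 92793, 39059, 41285 and 62525 CPM, and mice 2 to 4 were each below 3 of the 4 controls. The respiratory chain sums of all 4 EKO mice were above all controls, with mouse 1 the highest. With a muscle marker score in the model the median of the members was 0.24. Suprabasal epidermal genes (8 of 10 tested) were all positive in EKO, with a median of 0.85 and sums of 7840 to 15470 CPM in controls and 8813 to 27825 CPM in EKO. EKO mouse 1 had the lowest of these epidermal sums in its group and the highest respiratory chain sum. The brown fat list, of which 4 of 5 genes were tested, was positive in 3 (median 0.44). It summed to 73.3 to 123 CPM in controls and 79.3 to 169.7 CPM in EKO. EKO mouse 1 was the lowest of its group in this list, and EKO mice 2 to 4 were above every control. Hair shaft genes were negative in EKO in all 22 tested (median -2.30), with sums of 32.4 to 46511 CPM in controls and 87.9 to 8294 CPM in EKO, and with the hair score in the model the median of the members was 0.25. Sebaceous gland genes were positive in 8 of 9 (median 0.67, 2662 to 8059 CPM in controls and 5014 to 5659 CPM in EKO). Fibroblast genes were negative in 8 of 8 (median -0.35, 22645 to 47039 and 18946 to 34108 CPM), and white fat genes in 11 of 14 (median -0.41, 1756 to 3409 and 1471 to 2769 CPM). Macrophage genes were positive in 4 of 7 (median 0.03). EdgeR called 0 genes of these marker lists in EKO against control. The part of any of these tissues in the result, muscle and hair included, was not tested.

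In MKO mice the chain's level rested on 1 animal. In MKO 63 of 82 genes (76.8%) were positive, against 50.2% of all targets, with a median log2 fold change of 0.15. With edgeR, 0 members were called, against 0.0293% of all targets, and DESeq2 and limma-voom called 0 as well. Unadjusted p was under 0.05 for 2 (2.44%) members and 9.58% of all targets. The summed level was 16673, 9334, 9223 and 8731 CPM in MKO mice 1 to 4. Mouse 1 was above every other mouse of the study, mice 2 and 3 were within the control range, and mouse 4 was just below it. Without MKO mouse 1, 21 of 82 genes were positive and the median was -0.13. Limma-voom with quality weights, which weights down libraries that stand apart, gave a median of -0.08.

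MKO mouse 1 was also the mouse with the most muscle RNA. It had the highest level of the 16 mice for 49 of the 82 genes, and its muscle marker sum was 157750 CPM, where the other MKO mice had 55028 to 72773 CPM. Its white fat sum, 4992 CPM, was also the highest of the 16 mice, where MKO mice 2 to 4 had 1907.5, 1425 and 2144 CPM. Its library was the smallest, at 6962474 counts. With the muscle score in the model the MKO median was -0.11. Hair shaft genes (22 of 24 tested) summed to 32.4 to 46511 CPM in controls and 13.8 to 660.3 CPM in MKO, with all 22 negative, and with the hair score in the model the median was -0.11. Sebaceous gland genes were positive in 2 of 9 in MKO (median -0.43).

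Atp5c1, the gamma subunit of the ATP synthase shaft, was the 1 member higher in every MKO mouse than in every control (1.22% of members, 1.37% of all targets), and 0 were lower in every mouse (1.71% of all targets). It had 179.8, 207, 193 and 214 CPM in controls and 435, 223, 216 and 219 CPM in MKO mice, with a log2 fold change of 0.46 (SE 0.21, edgeR adjusted p = 0.499). Mice 2 to 4 exceeded the highest control by little. With a library left out the count of genes higher in every mouse was 1 to 3, with 2 without MKO mouse 3 (2.08% of all targets) and 3 without control mouse 4 (3.53%). Without MKO mouse 1, 4 genes were lower in every mouse (4.88% of members, 3.47% of all targets): Ndufc1, Cox4i2, Cox6b1 and Atp5g3. Without control mouse 3 there was 1, Cox6a1 (3.88% of all targets), and any other library left out gave 0. Ndufb9, an accessory subunit of complex I, had a log2 fold change of 0.45 (SE 0.24) with overlap, and Ndufv2, a core subunit beside Ndufv1, 0.46 (SE 0.27). The largest positive value was that of Cox8b at 0.65 (SE 0.48), a muscle form whose MKO mice ran from 150.2 to 559 CPM.

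In the double knockout the spread between mice covered the control range. The sums of EMdKO mice 1 to 4 were 10084, 14088, 7922 and 11872 CPM, so that mice 2 and 4 were above and mouse 3 below all controls. The median log2 fold change was 0.10 and 59 genes (71.95%) were positive, against 47.1% of all targets. Without mouse 2 the median was -0.05 and without mouse 3 it was 0.25, and with the hair score in the model it was -0.08. With edgeR, 0 members were called, against 0.0293% of all targets, and DESeq2 and limma-voom called 0. Unadjusted p was under 0.05 for 1 (1.22%) member and 8.16% of all targets. Muscle sums in EMdKO ran from 33356 CPM in mouse 3 to 75157 CPM in mouse 2, the mice at the ends of the respiratory chain sums too. Hair shaft genes were negative in all 22 tested in EMdKO (median -3.29), with sums of 95.5, 22.8, 9180 and 24.7 CPM in mice 1 to 4. Mouse 3, the lowest of its group in the chain and in muscle, was thus the highest in hair. Sebaceous gland genes were positive in 8 of 9 (0.78).

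Ndufb9 was the 1 gene higher in every EMdKO mouse than in every control (1.22% of members, 2.23% of all targets), and 0 were lower in every mouse (1.45% of all targets). It had 466, 426, 468 and 486 CPM in controls and 704, 708, 536 and 539.8 CPM in EMdKO mice, with a log2 fold change of 0.43 (SE 0.24, edgeR adjusted p = 0.683). Its level was 1002, 489.7, 470.1 and 568 CPM in MKO and 646, 413, 405 and 603 CPM in EKO, where both groups overlapped with controls. With a library left out the count of such genes was 1 to 7. It was 7 (8.54% of members, 3.92% of all targets) without EMdKO mouse 3, the mouse lowest in the chain, and 3 (4.67% of all targets) without control mouse 4. It was 2 without EMdKO mouse 2 or control mouse 2 (3.8% and 3.62% of all targets). Genes lower in every mouse were 3 without EMdKO mouse 2 (3.66% of members, 2.91% of all targets) and 0 or 1 without another library. The 3 comparisons share the same control mice, and no difference between knockouts was called for Ndufb9.

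Ndufa4l2 encodes a relative of Ndufa4 that is known as a target of the hypoxia-inducible factor and as a brake on respiration. It had 161, 172, 244 and 239 CPM in controls, 189, 433, 240.4 and 313 in EKO, 139.5, 270.1, 257 and 239 in MKO, and 372, 234, 493 and 310.4 CPM in EMdKO. EMdKO mouse 2 lay inside the control range and the other 3 above it. The log2 fold change in EMdKO was 0.79 (SE 0.28, edgeR adjusted p = 0.458), the largest of the members, and it was 0.53 (SE 0.28) in EKO. In EMdKO the suprabasal list was positive in 8 of 8 genes, with sums of 10807 to 18858 CPM, the lowest in mouse 2. The part of the epidermis in this difference was not tested.

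**Figure D3:**
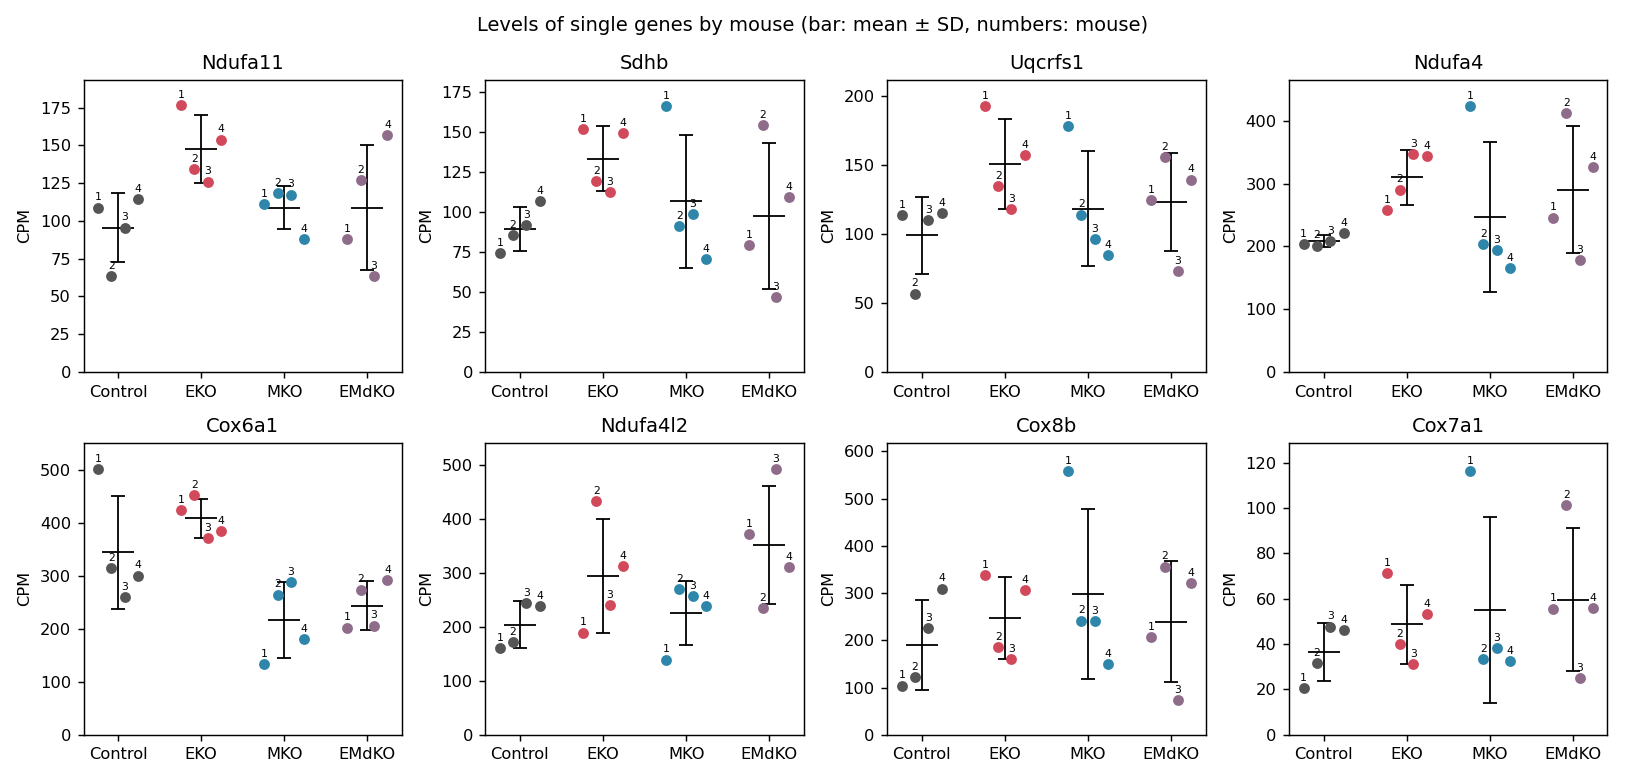
CPM of single genes in each mouse, with numbers for mice and bars for mean and SD of 4 mice. Ndufa11, Sdhb, Uqcrfs1 and Ndufa4 were higher in all EKO mice than in controls, Cox6a1 was lower in all MKO and EMdKO mice than in any EKO mouse, and Cox8b and Cox7a1 were highest in MKO mouse 1.

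Between the knockouts Cox6a1 had the smallest adjusted p. Its level was 502, 315, 260.2 and 301 CPM in controls, 425, 453, 371 and 385 in EKO, 133, 265, 288 and 181 in MKO, and 203, 274, 206 and 293 CPM in EMdKO. All 4 EKO mice were above all 8 mice of the groups with LysMCre, while controls overlapped with every group. EKO exceeded MKO by a log2 difference of 0.91 (SE 0.25, edgeR adjusted p = 0.0865), which missed the threshold. It passed with DESeq2 (0.92, adjusted p = 0.0131), with limma-voom (0.76, adjusted p = 0.0196) and in edgeR without control mouse 1 (0.91, adjusted p = 0.0378). These settings also called more of all targets, 4.56%, 11.7% and 2.54% in that order, where edgeR with all mice called 0.858%. EMdKO differed from EKO by -0.74 (SE 0.24, edgeR adjusted p = 0.672). Against control the log2 fold change was -0.67 (SE 0.24, edgeR adjusted p = 0.374) in MKO and -0.50 (SE 0.24, edgeR adjusted p = 0.631) in EMdKO.

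For the chain as a whole, EKO against MKO had a median log2 difference of 0.10, and 56 of 82 genes (68.3%) were higher in EKO, against 47.7% of all targets. EdgeR called 0 members, where it called 0.858% of all targets. Unadjusted p was under 0.05 for 4 (4.88%) members and 16.9% of all targets. DESeq2 called 1 member, Cox6a1, and limma-voom 6, each higher in EKO: Cox6a1, Cox7a2, Cox7b and Ndufa4 of complex IV, Uqcrq of complex III and Atp5g3. These are 1.22% and 7.32% of members, below the 4.56% and 11.7% of all targets that the same tools called. In 5 genes (6.10%), Ndufa1, Ndufa2, Ndufa11, Ndufv1 and Cox6a1, every EKO mouse was above every MKO mouse, near the 5.15% of all targets, and 0 were below (5.16% of all targets). Without MKO mouse 1 there were 37 such genes above, 45.1% of members against 8.59% of all targets, and the median was 0.39. Without MKO mouse 2, 3 or 4 the count above was 5 each time, and the median was 0.01, 0.01 and 0.00, with 43, 41 and 41 genes positive. The size of the median thus depended on which MKO mouse was left out.

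Markers differed between EKO and MKO as well. All 22 tested hair shaft genes were higher in EKO (median 4.29, sums of 87.9 to 8294 CPM against 13.8 to 660.3 CPM). All 8 suprabasal genes were higher in EKO (median 1.01, 8813 to 27825 against 8098 to 12591 CPM), and 2 of them were called, Flg at a log2 difference of 2.55 and Hrnr at 2.06 (edgeR adjusted p = 0.0371 for both). Sebaceous gland genes were higher in 7 of 9 (median 0.93, 5014 to 5659 against 3041 to 7401 CPM), with 1 called, Elovl3 (2.85, edgeR adjusted p = 0.0137). Muscle genes were lower in EKO for 22 of 26 (median -0.50, 39059 to 92793 against 55028 to 157750 CPM). Brown fat genes were higher in 2 of 4 (median 0.49, 79.3 to 169.7 against 82.6 to 92.8 CPM), with 0 called. The 2 with the smallest p were Pank1 (1.03, edgeR adjusted p = 0.0647) and Cidea (1.90, edgeR adjusted p = 0.0704). With the muscle score in the model the median of the members was 0.30, and with the hair score 0.36. The part of any of these tissues in the difference was not tested.

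EMdKO against EKO had a median of -0.15, and 17 of 82 genes (20.7%) were positive, against 50.3% of all targets. EdgeR, DESeq2 and limma-voom called 0 members, where edgeR called 0.0147% of all targets. At an unadjusted p under 0.05 stood 1 (1.22%) member and 6.59% of all targets. Ndufv1 and Cox6a1 were below in every EMdKO mouse (2.44% of members, 2.71% of all targets), and 0 were above (2.86% of all targets). Without EMdKO mouse 2 there were 9 genes below, against 4.5% of all targets, and the median was -0.33. Without mouse 3 the median was -0.03.

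EMdKO against MKO had a median of -0.02, with 34 genes (41.5%) positive, against 48.1% of all targets. The 3 tools called 0 members, where edgeR called 0.00734% of all targets. At an unadjusted p under 0.05 there was 1 (1.22%) member, Ndufa4l2 at a log2 difference of 0.64 (SE 0.28), and 7.42% of all targets. Members above or below in every mouse numbered 0, against 3.71% and 2.28% of all targets. Without MKO mouse 1 the median was 0.24 and without EMdKO mouse 2 it was -0.19.

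The interaction asks whether the double knockout differs from the sum of the single ones. It was negative for 77 of 82 genes, with a median of -0.27, where 48.5% of all targets were negative and 51.5% positive. EdgeR called 0 members and 0% of all targets, and DESeq2 and limma-voom called 0 members. Unadjusted p was under 0.05 for 1 (1.22%) member, Ndufv3, and 3.41% of all targets. Ndufv3 had 84.1 ± 16.9 CPM in controls, 109 ± 22.04 in EKO, 106 ± 11.7 in MKO and 87.03 ± 8.42 CPM in EMdKO (SD, n = 4), at an interaction of -0.66 (SE 0.23, edgeR adjusted p = 0.999). The negative median rested on MKO mouse 1, for without it the median was -0.02 and 37 genes were positive. It was -0.03 with the muscle score in the model and -0.07 with limma-voom, -0.47 without EMdKO mouse 2 and -0.15 without EMdKO mouse 3.

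Most of the genes went up and down together over the 16 mice. Pearson's r between a gene's log2 CPM and the mean of the other members had a median of 0.77 (Spearman's rho 0.76), and 50 of 82 genes had an r over 0.7. These values are descriptions, since all genes of a mouse share its library and its tissue piece. The median was 0.88 for complex V, 0.82 for complex I, 0.80 for complex II, 0.79 for complex IV, 0.78 for complex III and 0.56 for the assembly factors. The genes with an r below 0 were 3, all counted with complex IV: Cox6b2, a testis form, at -0.58, Ndufa4l2 at -0.41 and Cox4i2 at -0.15. Cox6a1 was at 0.01, near 0 as well.

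**Figure D4:**
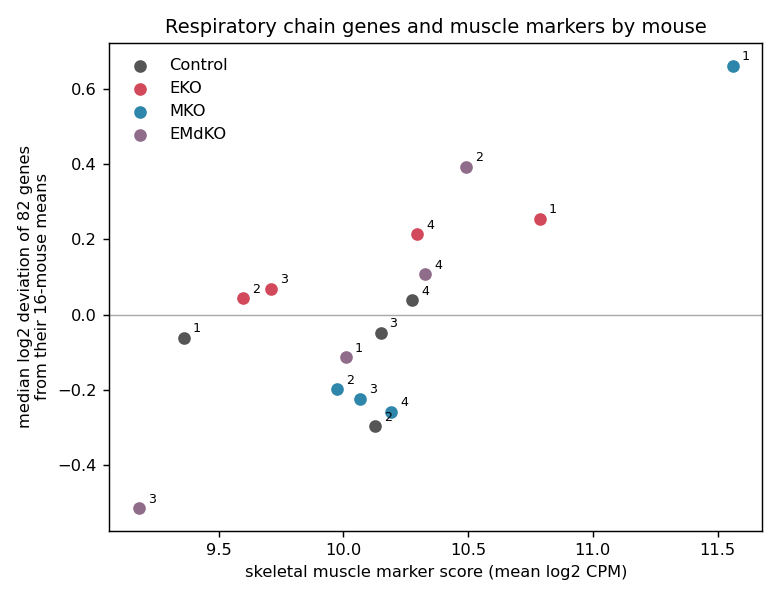
Each point is a mouse: the mean log2 CPM of 26 skeletal muscle markers on the horizontal axis, and the median log2 deviation of the 82 genes from their 16-mouse mean on the vertical axis. MKO mouse 1 is at the top right (score 11.6) and EMdKO mouse 3 at the bottom left (score 9.18). The 4 EKO mice lie above 0, mice 1 to 4 at muscle scores of 10.8, 9.60, 9.71 and 10.3.

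The shared pattern ran with muscle markers, and less closely with markers of other tissues. Over the 16 mice the median r of the members with the muscle score was 0.56 (rho 0.50), 75 of 82 genes were above 0 and 55 above 0.5. Without EMdKO mouse 3 and MKO mouse 1, the mice farthest from the median muscle score, the median r was 0.25, so for a typical gene much of the relation rested on these mice. The muscle forms kept it. Cox8b had an r of 0.86 with all mice and 0.75 without those mice, Cox7a1 0.86 and 0.78, and Cox6a2 0.86 and 0.76. Ndufs4, an accessory subunit of complex I, was the highest, at 0.89 and 0.84. For the other scores, the members' median r over the 16 mice was 0.33 with white fat, -0.31 with hair and -0.04 with suprabasal epidermis. After group means were subtracted it was 0.66 with muscle, 0.46 with white fat, -0.43 with hair and -0.31 with suprabasal epidermis. The scores were not tested against each other.

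Among the muscle forms, Cox8b had 104, 122, 226 and 309 CPM in controls, 338, 186, 161 and 306 in EKO, 559, 242, 241 and 150.2 in MKO and 207, 356, 73.7 and 322 CPM in EMdKO. Cox7a1 had 20.4, 31.5, 47.7 and 46.1 CPM in controls, 71.1, 39.95, 31.1 and 53.1 in EKO, 116, 33.2, 38.1 and 32.5 in MKO and 55.7, 101, 25.03 and 55.9 CPM in EMdKO. Cox6a2 had 22.5, 56.4, 48.02 and 71.5 CPM in controls, 104, 49.9, 44.9 and 51.8 in EKO, 124, 53.2, 47.2 and 39.2 in MKO and 37.8, 51.9, 15.5 and 94.1 CPM in EMdKO. In each of them MKO mouse 1 was the highest MKO mouse and EMdKO mouse 3 the lowest EMdKO mouse, and every group overlapped with every other.

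**Figure D5:**
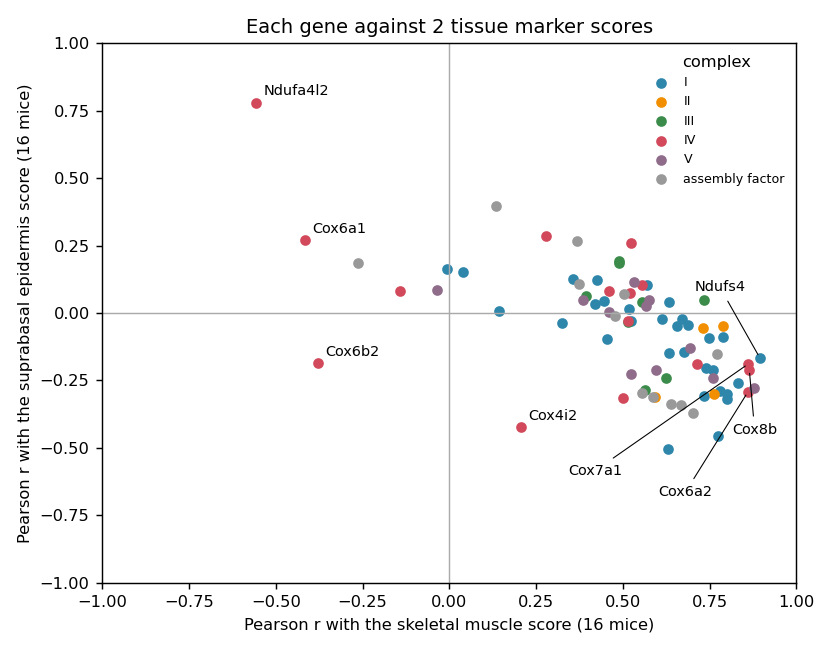
Each point is 1 of the 82 genes, with its Pearson r over 16 mice with the skeletal muscle score on the horizontal axis and with the suprabasal epidermis score on the vertical axis. Most genes lie right of 0, up to 0.89 for Ndufs4, and Ndufa4l2 lies at the top left, at -0.56 and 0.78.

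Ndufa4l2 had an r of -0.56 with the muscle score and 0.78 (rho 0.81) with the suprabasal epidermis score. Without EKO mice 2 and 4, the mice farthest from the median epidermal score, the r with the epidermal score was 0.74. The next highest r with that score among the members was 0.40, for Sdhaf1, an assembly factor of complex II. Cox6b2 was nearest to the hair shaft score, at 0.64, in a gene of few reads (2.63 to 7.02 CPM in EKO mice). Cox6a1 had an r of -0.42 with muscle and 0.27 with epidermis.

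Isoform use was followed as the log2 ratio of the special to the common form, with 0.5 CPM added to each. For Cox6a2 over Cox6a1 the mean difference from control was 0.07 in EKO, 1.05 in MKO and 0.32 in EMdKO. In the same order it was -0.22, 0.51 and 0.61 for Cox7a1 over Cox7a2, 0.33, 0.96 and 0.30 for Cox8b over Cox8a, and -0.08, -0.01 and 0.35 for Ndufa4l2 over Ndufa4. None of these differences passed a test. Cox8a had few reads, 303 counts in the 16 libraries together and at most 35 in any library, so its ratio is coarse. The smallest p of the 15 ratios tested was that of Cox4i2 over Cox4i1 in EKO, where the ratio was -4.74, -3.27, -4.70 and -4.95 in controls and -4.51, -5.71, -5.49 and -5.55 in EKO mice. EKO mice 2 to 4 were below all controls and mouse 1 was not. The mean difference was -0.90 (two-sided exact permutation test over 70 assignments, p = 0.114, adjusted p = 0.896 over the 15), where 4 against 4 mice can give 0.0286 at best.

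Other mitochondrial genes were read from lists. None of the 13 subunits encoded in mitochondrial DNA had a target with its symbol. In EKO, 15 of 16 tested genes of the tricarboxylic acid cycle were positive (median 0.15), as were 7 of 8 electron carriers and exchangers (0.31), 11 of 13 fatty acid oxidation genes (0.13) and 22 of 30 assembly factors outside the name rule (0.10). Glycolysis genes, which act outside mitochondria, were positive in 11 of 13 (0.24). Regulators of mitochondrial biogenesis were positive in 7 of 12, with a median of 0.01. The smallest p among these regulators in EKO was that of Esrra, an estrogen-related receptor, at a log2 fold change of 0.41 (SE 0.21, edgeR adjusted p = 0.736). EdgeR called 0 genes of these lists in any knockout against control.

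In MKO, 16 of 16 tricarboxylic acid cycle genes were positive (median 0.29), 26 of 26 muscle markers (0.57), 12 of 13 glycolysis genes (0.33) and 6 of 8 electron carriers and exchangers (0.32). Fatty acid oxidation genes were positive in 5 of 13 (-0.07), biogenesis regulators in 6 of 12 (0.00) and outside assembly factors in 16 of 30 (0.02). In EMdKO the medians were 0.17 for the tricarboxylic acid cycle, 0.14 for fatty acid oxidation, 0.16 for glycolysis, 0.14 for electron carriers, 0.00 for outside assembly factors and -0.03 for the biogenesis regulators.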

How the data were processed

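RNA from whole skin of 16 mice was read as an amplicon count per targeted transcript. Total RNA was amplified with the Ion AmpliSeq mouse transcriptome panel, per the labels' protocols. The authors deposited raw counts per target, with HTSeq 0.6.0 and DESeq2 1.18.1 named in the submitters' processing notes. For the aligner, build, annotation and amplicon positions, the answer is "not given in the sources used here". Symbols were matched for 22562 of 23930 targets, 22448 through RefSeq (GRCm38.p6) and 114 through GENCODE vM21. HTSeq summary lines, 3.111 to 5.252% of reads, were left out.

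The members and lists were chosen with earlier results of these data known. Named genes were the members with the smallest p per comparison (up to 5 against control, up to 3 otherwise), isoform pairs, core subunits and the extremes per complex. Members whose groups did not overlap were added after the data were seen, and so was Ndufs4, for its correlation. Atp5g1 and Atp5g2 were not analysed here.

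Counts were fitted in R 4.3.3 with edgeR 4.0.16 (TMM scaling, default expression filter, 1 mean per group over 16 libraries). CPM used TMM-scaled library sizes, and log2 CPM a prior count of 2. The standard error is the size of the log2 fold change divided by the square root of the F statistic. Marker scores are the mean log2 CPM of a list. Alternatives were other scaling, DESeq2 1.42.0, limma-voom 3.58.1 with quality weights, no filter or a stricter one (CPM of 1 in 4 libraries), a replicate block, fits without the groups not compared, muscle or hair covariates, and each library left out. Non-overlap counts on library totals or without a library were added after the data were seen. The fit was also run on simulated counts. The changes put in were larger than any of the members' in the main fit, so small changes were not covered. Tables and figures used python 3.11.15, scipy 1.17.1, pandas 2.3.3 and matplotlib 3.10.9.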

Additional observations from a re-analysis of the deposited data

Results flagged for a closer look

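Of 168 groups of 4 values (37 named members and 5 complexes in 4 groups), 20 had a mouse whose gap to the next was over 0.829 of the group's range. Chance gives about 1 in 20 such groups, and these genes move together. MKO mouse 1 held 16 of the 20, with the range of the other 3 MKO mice in brackets here. Its summed level was 5714 CPM for complex I (3150 to 3239), 1056 CPM for complex II (659.7 to 670.1), 2062 CPM for complex III (1082 to 1180) and 4166 CPM for complex V (2115 to 2166). In complexes I and III it had Ndufv2 at 294 CPM (127 to 133), Uqcrc1 at 703 CPM (412 to 427) and Uqcrc2 at 262 CPM (134 to 144). In complex IV it had Cox5a at 377 CPM (123 to 136), Cox6b1 at 416 CPM (123 to 169), Ndufa4 at 424 CPM (165 to 203), and the muscle forms Cox6a2 at 124 CPM (39.2 to 53.2) and Cox7a1 at 116 CPM (32.5 to 38.1). In complex V it had Atp5a1 at 696 CPM (338 to 394), Atp5b at 918 CPM (488 to 560.4), Atp5c1 at 435 CPM (216 to 223) and Atp5e at 100.3 CPM (32.1 to 43.02). The muscle marker sum of this mouse was 157750 CPM and its white fat sum 4992 CPM, and the part of either tissue in these values was not tested.

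The other 4 were single genes in other mice, again with the range of the rest of the group. Cox6a2 was at 104 CPM (44.9 to 51.8) in EKO mouse 1, the EKO mouse with the highest muscle sum. Cox4i1 was at 212 CPM (176 to 181) in EKO mouse 3. Ndufv3 was at 109 CPM (75.4 to 76.1) in control mouse 4, and Uqcrfs1 was at 56.8 CPM (110.3 to 115) in control mouse 2.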

How the results depend on the processing

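EdgeR called 0 members in all 7 comparisons under every setting run except 1, EKO against MKO without control mouse 1. In that comparison the members called higher were 1 with DESeq2, 6 with limma-voom and 0 to 1 when a library was left out (1 without control mouse 1), where those settings called 4.56%, 11.7% and 2.54% of all targets. Mouse numbers did not pair the libraries: over 24 same-numbered pairs the correlation of deviations ran from -0.54 to 0.61, with a median of -0.11. With the number as a replicate block 0 members were called, and the median log2 fold change was 0.27 in EKO, 0.11 in MKO and 0.08 in EMdKO. The EKO median stayed between 0.20 and 0.33 under the alternatives run. The biological coefficient of variation over all targets was 0.31.

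Among 45 values of single members and 15 isoform ratios, 21 changed sign under some setting, none of them called, and the cause was not tested. In EKO, the log2 fold change of Atp5b was 0.000418 with RLE scaling, 0.000484 with DESeq2, 0.000728 with the hair covariate, 0.00283 with the replicate block, 0.00669 on the compared groups, 0.0196 with no filter, 0.0476 on library totals, 0.0519 with limma-voom and -0.0615 to 0.0626 with a library left out. Ndufa3 was at 0.00471 on library totals and -0.19 to 0.0443 with a library left out. In MKO, Sdhb was at -0.11 with the muscle covariate, -0.27 with the hair covariate and -0.0386 to 0.41 with a library left out. Cox8b was at -0.23 with the hair covariate. With a library left out, Uqcr11 was at -0.41 to 0.13, Uqcrc2 at -0.000231 to 0.38 and Atp5g3 at -0.40 to 0.0185. In EMdKO, Sdha was at -0.0432, Atp5e at -0.23 and Atp5d at 0.0623 with the hair covariate, Atp5e at -0.0554 and Atp5d at 0.00231 with limma-voom, and Uqcr11 at 0.0132 on library totals. With a library left out, Atp5e was at -0.23 to 0.62, Atp5d at -0.25 to 0.18, Uqcr11 at -0.18 to 0.16 and Ndufs6 at -0.32 to 0.0834. The isoform ratios with a library left out were -0.46 to 0.34 for Cox6a2 over Cox6a1, -0.56 to 0.0524 for Cox7a1 over Cox7a2, -0.0323 to 0.65 for Cox8b over Cox8a and -0.31 to 0.0547 for Ndufa4l2 over Ndufa4 in EKO, -0.21 to 0.51 for Ndufa4l2 over Ndufa4 in MKO, and -0.21 to 0.71 for Cox6a2 over Cox6a1, -0.0642 to 0.76 for Cox8b over Cox8a, -0.85 to 0.0686 for Cox4i2 over Cox4i1 and -0.0394 to 0.72 for Ndufa4l2 over Ndufa4 in EMdKO.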
